A study of Homo sapiens with 6 samples.

Results

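The protein-coding genes of the clusters HOXA, HOXB, HOXC and HOXD were examined in RNA-seq of OE-19, an established human cell line of adenocarcinoma of the esophagogastric junction. The count table held 39 of them among its 60480 gene identifiers, namely 11 of HOXA, 10 of HOXB, 9 of HOXC and 9 of HOXD, chosen by their symbols and not by their values. There were 3 control libraries and 3 libraries of cells in which *IGF2BP3* was knocked down by shRNA (IGF2BP3 KD). All came from OE-19 cells kept in the same serum-containing medium. The control libraries are titled shControl, while their descriptions and count columns read Puro. These labels do not settle whether the control cells carried a control shRNA. IGF2BP3 is an RNA-binding protein described as a reader of m6A on mRNA, and the comparison asks how RNA levels changed when it was reduced. No source says whether the 3 libraries of a group came from separate cultures or whether the KD libraries carry the same shRNA, so p-values measure only the spread between these libraries.

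HOX proteins are homeodomain transcription factors that set position along the body axis. Within a cluster the genes lie in the order in which they act, from the low-numbered anterior genes to the high-numbered posterior genes, and genes with the same number in different clusters are paralogs that form a paralog group. In the gut the posterior genes mark the hindgut. MEIS proteins, among other cofactors, bind DNA together with HOX proteins, Polycomb proteins keep HOX clusters silent, trithorax proteins keep them active, and CDX proteins and retinoic acid can switch them on.

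Total counts per library were 58966114 to 69989087 in control cells and 53424071 to 63008137 in IGF2BP3 KD cells. Levels are given as CPM, the counts of a gene relative to the TMM-scaled total of its library, with the SD over 3 libraries. A log2 fold change above 0 means a higher level in IGF2BP3 KD than in control cells. A gene is called lower or higher when the quasi-likelihood test of edgeR gives an adjusted p under 0.05 over 19778 genes. *IGF2BP3* itself had 7416, 7363 and 6532 counts in control libraries and 777, 792 and 794 in IGF2BP3 KD libraries. It fell from 108 ± 2.92 to 13.3 ± 0.996 CPM (log2 fold change -3.03, SE 0.06, adjusted p = 3.1e-10).

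OE-19 cells expressed HOXB genes most, then HOXC and HOXA genes, and almost no HOXD RNA. Of the 39 genes, 26 had enough counts to be tested, namely 8 of HOXA, 9 of HOXB, 9 of HOXC and 0 of HOXD. In control cells the HOXB genes held 62.4% of all HOX counts, the HOXC genes 26.6%, the HOXA genes 11.0% and the HOXD genes 0.0262%. The 9 HOXD genes summed to 6, 5 and 9 counts in control libraries and to 0, 0 and 8 counts in IGF2BP3 KD libraries. *HOXD1*, *HOXD3*, *HOXD4*, *HOXD8* and *HOXD9* had 0 counts in every library, which allows up to 0.0556 CPM in the shallowest library if 3 counts are taken as the limit of a count of 0. This limit covers counting error only. Outside HOXD, *HOXA2*, *HOXA6*, *HOXA9* and *HOXB1* were not tested, with 0 to 26 counts per library.

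Levels of different genes were compared as CPM per kb of exon, averaged over the 6 libraries. The highest values belonged to *HOXB6* (25.8) and *HOXB7* (25.4), both in the middle of the HOXB cluster, followed by the posterior genes *HOXC10* (14.6) and *HOXC12* (12.6) and by the anterior gene *HOXB3* (9.63). *HOXB6* stood at the 89.2nd percentile of the tested coding genes by this measure and *HOXB3* at the 69.2nd. These 5 genes kept this order on the exonic bases that no other gene shares, where *HOXB6* had 38.5, *HOXB7* 25.4 and *HOXB3* 10.9. The groups were compared on all exonic bases only, and *HOXB6* shares 32.9% of its exonic bases with other genes. On all exonic bases *HOXB6* had the higher mean in control cells, and in IGF2BP3 KD cells it lay within the spread of *HOXB7*. *HOXB6* had 28.2 ± 0.794 CPM per kb in control cells and 23.4 ± 0.975 in IGF2BP3 KD cells, and *HOXB7* had 25.8 ± 1.57 and 24.9 ± 1.80. In control cells *HOXB8* (9.67 ± 0.569) lay level with *HOXB3* (9.84 ± 0.179), while in IGF2BP3 KD cells it lay level with *HOXB5* (6.55 ± 0.103 against 6.58 ± 0.519).

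**Figure D1:**
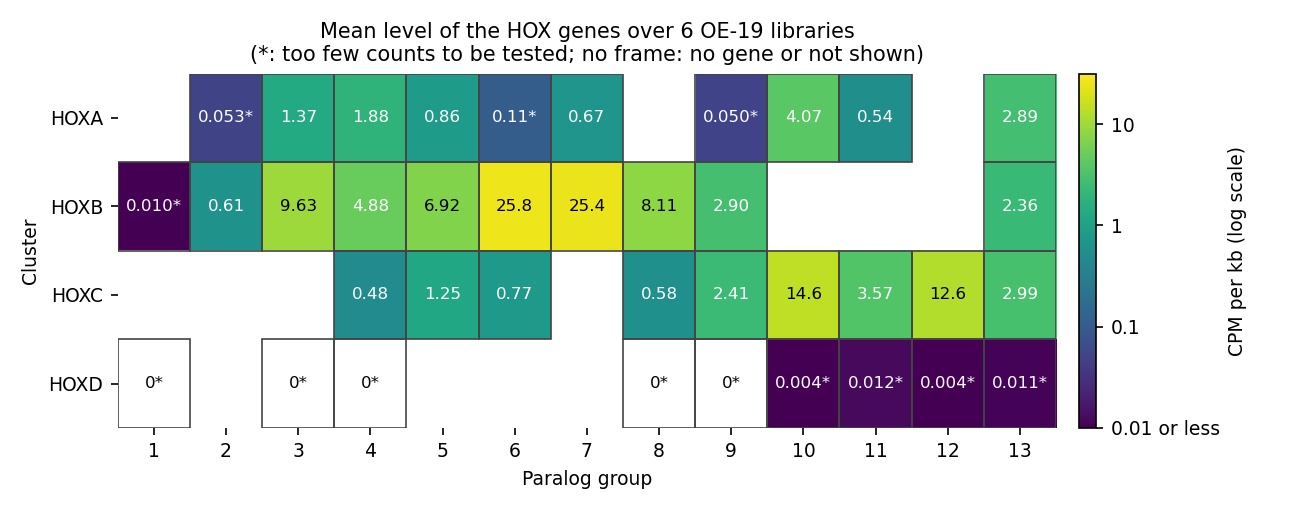
The map gives the mean level of the HOX genes shown over 6 libraries in CPM per kb of exon, with clusters as rows, paralog groups 1 to 13 as columns and colour on a log scale. The row of HOXB is brightest at *HOXB6* (25.8) and *HOXB7* (25.4), the row of HOXC at *HOXC10* (14.6) and *HOXC12* (12.6), and no HOXD gene could be tested.

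In IGF2BP3 KD cells *HOXB8* and *HOXB6* fell and *HOXA13* rose. These were the 3 called of the 26 tested HOX genes (11.5%), where 20.4% of all tested genes were called. The 2 lower genes were 7.69% of the HOX genes tested, against 10.6% of all genes, and the 1 higher gene was 3.85%, against 9.87%. These shares rest on few HOX genes, and their difference from the shares of all genes was not tested. The tested HOX genes had a lower median level than all tested genes (7.11 against 9.81 CPM) and a larger median SE (0.152 against 0.117). The median log2 fold change was -0.06 over the HOX genes and 0.01 over all genes, and the median of its absolute value was 0.198 and 0.188. The groups did not overlap for 7 of the 26 HOX genes (26.9%), against 35.8% of all genes. In 5 of them (19.2%) the IGF2BP3 KD libraries were below control, against 17.8% of all genes, and in 2 (7.69%) above, against 18.0%. An unadjusted p under 0.05 was reached by 9 HOX genes (34.6%) and by 30.8% of all genes.

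*HOXB8* (ENSG00000120068, chr17:48611377-48615292 on the minus strand of hg38), a central gene of the HOXB cluster, fell in IGF2BP3 KD cells. It had 1485, 1671 and 1412 counts in control libraries and 862, 961 and 994 in IGF2BP3 KD libraries, that is 21.7, 24.0 and 24.1 CPM against 16.0, 15.5 and 15.8 CPM. Every IGF2BP3 KD library was below every control library. The mean fell from 23.3 ± 1.37 to 15.7 ± 0.247 CPM, 67.7% of control (log2 fold change -0.56, SE 0.07, adjusted p = 1.9e-04). None of its exonic bases is shared with another gene. In these bulk libraries, fewer cells with *HOXB8* RNA and less of it per cell cannot be told apart.

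The 3′ UTR of *HOXB8* holds the site for which this gene is a textbook target of miR-196, a microRNA encoded within the HOX clusters themselves. The mature sequences below, from RefSeq on GRCh38.p14, show the seed (bases 2 to 8) in capitals, and the miR-196 forms share 1 seed. They come from *MIR196A1* (chr17:48632532-48632553, minus strand), *MIR196A2* (chr12:53991762-53991783, plus strand) and *MIR196B* (chr7:27169528-27169549, minus strand).
hsa-miR-196a-5p: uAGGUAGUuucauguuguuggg
hsa-miR-196b-5p: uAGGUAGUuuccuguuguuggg
The next lines give, on the transcript strand, the *HOXB8* site (chr17:48612770-48612791) and the windows in *HOXB6* (chr17:48595934-48595955) and *HOXB7* (chr17:48607614-48607635), with the bases that face the seed in capitals. They are shown because *HOXB8* and *HOXB6* fell while *HOXB7*, which lies between them, was not called.
HOXB8: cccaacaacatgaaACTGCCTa
HOXB6: tggaaggagcacatACTACCTa
HOXB7: aacactgaaaaaatACTACCTa

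The *HOXB8* site pairs with miR-196a-5p over 22 of 22 bases without gaps, by 21 Watson-Crick pairs and 1 G-U pair. Among the 3′ UTRs of 13730 tested coding genes, 2 hold such a run of 22, those of *HOXB8* and *AKTIP*. The next HOX genes, *HOXA10* and *HOXC11*, reach 19 of 22, and 12.1% of these 3′ UTRs reach 19 or more. The 7 letters that complement the whole seed, ACTACCT, read on the transcript strand only, are in 6 of the 26 tested HOX 3′ UTRs and in 7.72% of all 13730. The 6 genes are *HOXA5*, *HOXA7*, *HOXB6*, *HOXB7*, *HOXB13* and *HOXC8*, with log2 fold changes of 0.39, 0.08, -0.27, -0.05, 0.17 and 0.28. *HOXA7* holds 4 such sites, *HOXC8* 3 and each of the others 1. Among these genes *HOXB6* is the one that was called. The part of these sites in the changes was not tested. The rows of the miR-196 genes held 0 or 1 counts in every library, and libraries of poly(A) RNA do not measure mature microRNAs, so their levels are not known here.

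*HOXB6* (chr17:48595751-48604992, minus strand) is the neighbour of *HOXB7* on the anterior side. It had the highest level per kb of the HOX genes in control cells and over the 6 libraries. In IGF2BP3 KD cells *HOXB6* lay within the spread of *HOXB7* on all exonic bases, but this depends on how shared bases are counted. On bases that no other gene shares, *HOXB6* had 38.5 and *HOXB7* 25.4 CPM per kb over the 6 libraries. Its counts were 4877, 5243 and 4330 in control libraries and 3238, 3675 and 4030 in IGF2BP3 KD libraries, or 71.2, 75.3 and 73.9 CPM against 60.0, 59.2 and 63.9 CPM. The groups did not overlap. The mean fell from 73.5 ± 2.07 to 61.0 ± 2.54 CPM, 83.1% of control (log2 fold change -0.27, SE 0.05, adjusted p = 0.0021). Of its exonic bases 32.9% are shared, 433 with *HOXB3* on the same strand and 425 with the antisense RNA *HOXB-AS3*. Its counts are uncertain to that extent. The bases shared with *HOXB3* are ambiguous under any strand setting of the counting. Those shared with *HOXB-AS3* depend on this setting, which is not stated. *HOXB-AS3* itself was not called, with 1035, 964 and 940 counts in control libraries and 638, 992 and 965 in IGF2BP3 KD libraries (log2 fold change -0.06).

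*HOXA13* (chr7:27193503-27200091, minus strand), the most posterior gene of HOXA and a hindgut gene, moved the other way. It had 881, 787 and 678 counts in control libraries and 935, 1086 and 1095 in IGF2BP3 KD libraries, or 12.9, 11.3 and 11.6 CPM against 17.3, 17.5 and 17.4 CPM. Every IGF2BP3 KD library was above every control library. The mean rose from 11.9 ± 0.835 to 17.4 ± 0.0870 CPM, 146% of control (log2 fold change 0.55, SE 0.08, adjusted p = 5.8e-04). It shares 86 exonic bases with *HOTTIP*, the long non-coding RNA that starts beside it on the opposite strand.

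**Figure D2:**
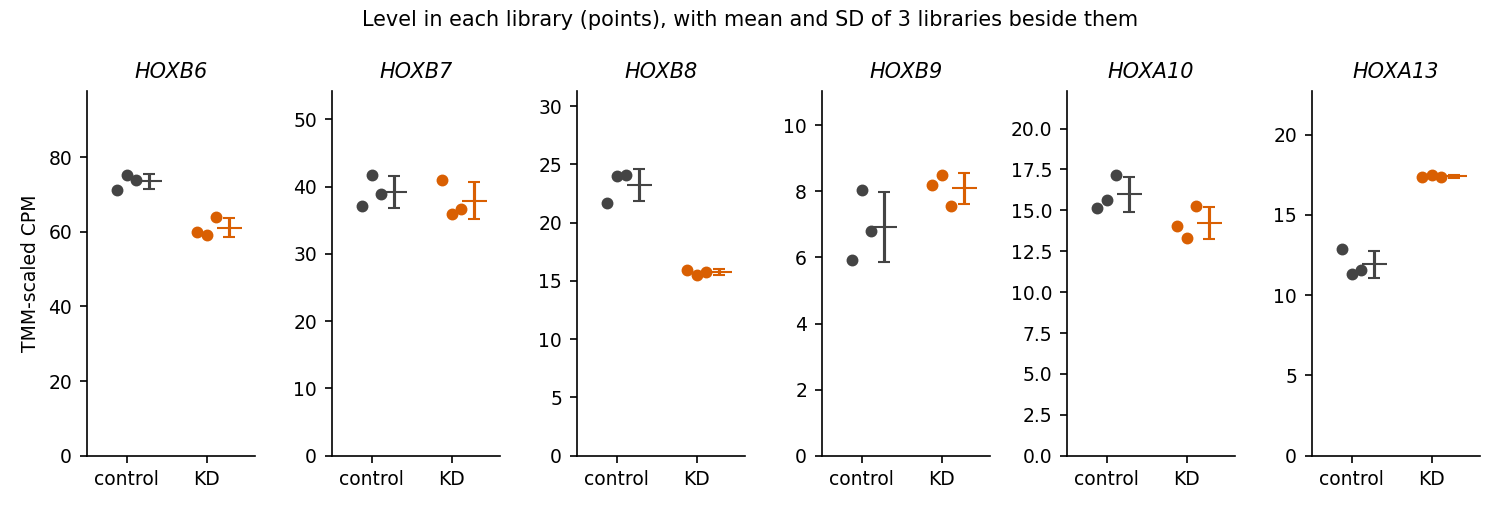
Points give the TMM-scaled CPM of *HOXB6*, *HOXB7*, *HOXB8*, *HOXB9*, *HOXA10* and *HOXA13* in each control and IGF2BP3 KD library, and the bars beside them the mean and SD of 3 libraries, on axes that start at 0. The groups are apart for *HOXB6*, *HOXB8* and *HOXA13* and overlap for *HOXB7*, *HOXB9* and *HOXA10*.

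The other 4 of the 5 genes with the highest level per kb were not called. *HOXB7*, a central HOXB gene, had 2537, 2909 and 2274 counts in control libraries and 2214, 2233 and 2311 in IGF2BP3 KD libraries (39.2 ± 2.38 and 37.9 ± 2.74 CPM, log2 fold change -0.05, SE 0.07, adjusted p = 0.69). *HOXC10* had 2301, 2470 and 2037 counts against 1741, 2282 and 2170 (34.6 ± 0.942 and 34.5 ± 2.25 CPM, log2 fold change -0.01, SE 0.06, adjusted p = 0.97). The groups overlapped for both genes. *HOXC12* had 2737, 2791 and 2397 counts against 2165, 2718 and 2699 (40.3 ± 0.530 and 42.2 ± 1.90 CPM, log2 fold change 0.07, SE 0.05, adjusted p = 0.46). *HOXB3* had 5105, 5060 and 4215 counts against 3777, 4484 and 4277 (73.0 ± 1.33 and 70.0 ± 2.19 CPM, log2 fold change -0.06, SE 0.04, adjusted p = 0.39). The groups overlapped for these genes as well. The 95% intervals of their log2 fold changes were -0.20 to 0.10 for *HOXB7*, -0.14 to 0.13 for *HOXC10*, -0.05 to 0.19 for *HOXC12* and -0.16 to 0.03 for *HOXB3*.

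Along the HOXB cluster, the 7 genes from *HOXB2* to *HOXB8* had a log2 fold change below 0 and the posterior genes *HOXB9* (0.23) and *HOXB13* (0.17) one above 0, but only *HOXB6* and *HOXB8* were called. The anterior gene *HOXB2* had 120, 138 and 105 counts in control libraries and 49, 67 and 97 in IGF2BP3 KD libraries. Its log2 fold change was -0.64 (95% interval -1.20 to -0.09, adjusted p = 0.104), with groups that did not overlap. *HOXB4* had 666, 805 and 614 counts against 467, 581 and 554, also without overlap (log2 fold change -0.24, 95% interval -0.47 to -0.02, adjusted p = 0.125). *HOXB5* had a log2 fold change of -0.14. The median log2 fold change was -0.14 over the 9 HOXB genes.

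In the HOXA cluster, *HOXA13* was the called gene among 8 tested, and the others had log2 fold changes of -0.21 (*HOXA3*) to 0.39 (*HOXA5*). Over the alternative fits *HOXA3* ranged from -0.34 to -0.07 and *HOXA5* from 0.20 to 0.74. The posterior gene *HOXA10*, which had the highest level per kb in the cluster (4.07), had 1038, 1088 and 1006 counts in control libraries and 757, 828 and 962 in IGF2BP3 KD libraries (log2 fold change -0.17, 95% interval -0.36 to 0.02). Further values were 0.09 for *HOXA4*, 0.08 for *HOXA7* and -0.09 for *HOXA11*.

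In the HOXC cluster 0 of 9 genes were called by edgeR, and 4 had an unadjusted p under 0.05. DESeq2 called none of them either. These 4 were *HOXC5* (log2 fold change -0.54, adjusted p = 0.0956), *HOXC9* (-0.38, adjusted p = 0.162), *HOXC13* (-0.36, adjusted p = 0.134) and *HOXC11* (0.19, adjusted p = 0.149). *HOXC5* had 166, 164 and 140 counts in control libraries and 87, 120 and 88 in IGF2BP3 KD libraries, without overlap, but shares 67.3% of its exonic bases with other genes. *HOXC11* had 745, 772 and 627 counts against 656, 812 and 759, which is 10.9 ± 0.188 and 12.4 ± 0.569 CPM, also without overlap. The central genes *HOXC4* (0.27), *HOXC6* (0.01) and *HOXC8* (0.28) had 58 to 194 counts per library.

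**Figure D3:**
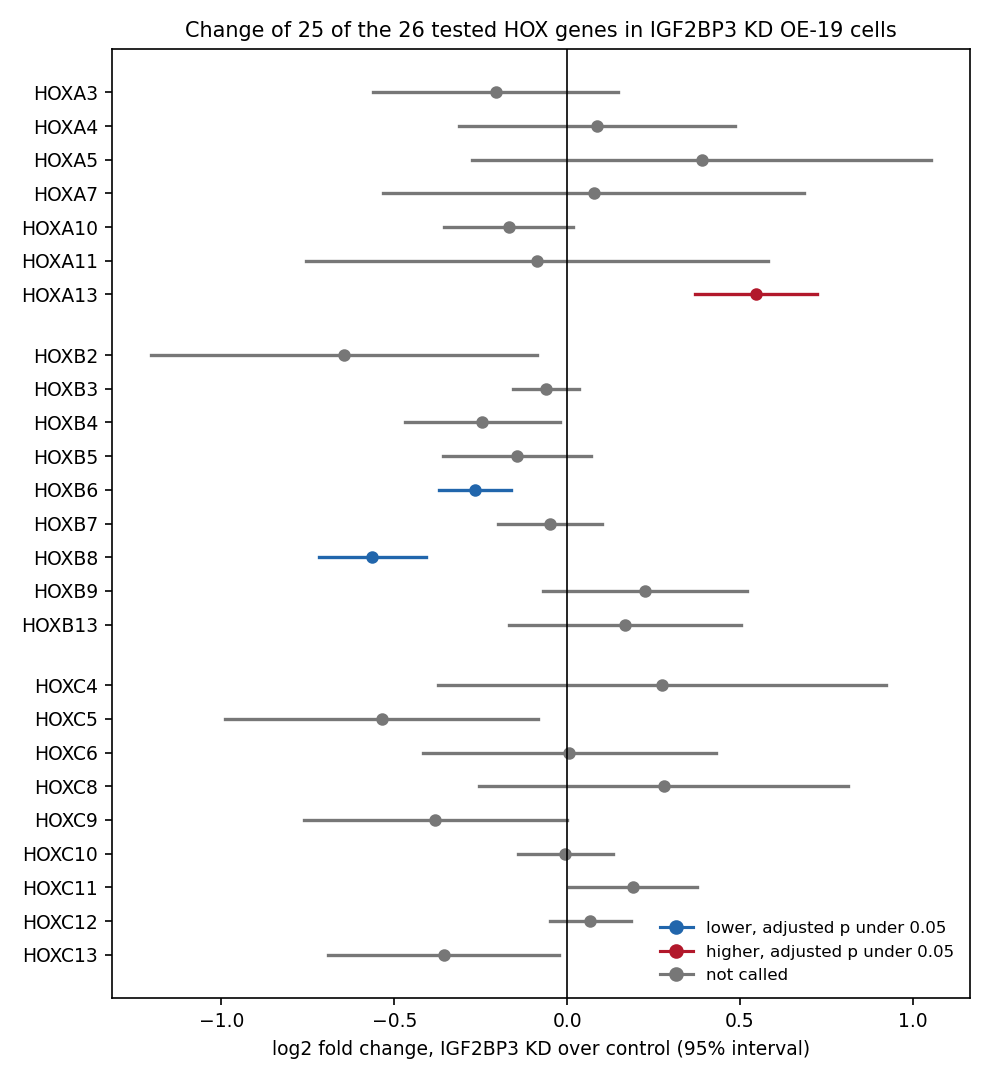
Points are the log2 fold changes of 25 of the 26 tested HOX genes and lines their 95% intervals, in cluster order from anterior to posterior within HOXA, HOXB and HOXC. *HOXB8* (-0.56) and *HOXB6* (-0.27) lie below 0 and *HOXA13* (0.55) above it as the called genes, and the intervals are widest for genes with few counts such as *HOXB2* and *HOXA5*.

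How small a change could be seen depended on the level. The 7 uncalled HOX genes at 10 CPM or more on average had log2 fold changes of -0.17 to 0.19, and their 95% intervals lay within -0.36 to 0.38. For the 16 uncalled genes under 10 CPM the intervals reached from -1.20 to 1.05, so changes as large as that of *HOXB8* were not detectable for some of them at this depth.

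Ratios of counts within a library do not depend on the scaling between libraries. *HOXB8* had 0.585, 0.574 and 0.621 times the counts of *HOXB7* in control libraries and 0.389, 0.430 and 0.430 times in IGF2BP3 KD libraries. *HOXB6* had 1.92, 1.80 and 1.90 times the counts of *HOXB7* in control libraries and 1.46, 1.65 and 1.74 times in IGF2BP3 KD libraries. *HOXA13* had 0.849, 0.723 and 0.674 times the counts of *HOXA10* in control libraries and 1.24, 1.31 and 1.14 times in IGF2BP3 KD libraries. The groups did not overlap in any of these ratios, and each gave p = 0.1 in a two-sided exact permutation test, the smallest value that 20 splits of 3 against 3 allow. The ratio of *HOXB6* to *HOXB5* overlapped between the groups (p = 0.3, exact permutation test), as did that of *HOXA13* to *HOXA11* (p = 0.2, exact permutation test). These pairs were chosen after the values were seen.

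Summed over a cluster, HOXB counts were 241, 255 and 250 CPM in control libraries and 223, 223 and 223 CPM in IGF2BP3 KD libraries, all below control. HOXA sums were 43.8, 42.5 and 45.5 CPM against 45.9, 47.2 and 48.5 CPM, all above control. Without *HOXA13* the HOXA sums were 31.0, 31.2 and 33.9 CPM against 28.6, 29.7 and 31.1 CPM, with a lower mean in IGF2BP3 KD cells and groups that overlapped. Without *HOXB6* and *HOXB8* the HOXB sums were 148.4, 155.8 and 151.6 CPM against 146.9, 147.9 and 143.1 CPM, still below control. The sums without called genes were added after the data were seen. HOXC sums overlapped, with 106 ± 2.47 and 106 ± 5.40 CPM. Over all 39 genes the sum was 398 ± 9.06 CPM in control cells and 376 ± 6.11 CPM in IGF2BP3 KD cells, without overlap. The HOXB share of HOX counts was 62.4% in control and 59.2% in IGF2BP3 KD cells, the HOXA share 11.0% and 12.5%, and the HOXC share 26.6% and 28.2%. The sums were not tested.

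Besides microRNA sites, 3′ UTRs were searched on the transcript strand for GATTACT and ACACATC, words that earlier results of these data had singled out, and for TGGAC, which holds the core of the m6A motif. GATTACT is in 2 of the 26 tested HOX genes, *HOXA3* and *HOXA11*, and in 7.80% of all 13730 3′ UTRs. ACACATC is in 1, *HOXC11*, and in 9.66% of all. Neither is in *HOXB6*, *HOXB8* or *HOXA13*. TGGAC is in 16 of 26 and in 62.1% of all. The median 3′ UTR length was 1072.5 bases for the HOX genes and 1286 for all.

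The HOX clusters also hold long non-coding RNAs, many of them antisense to a HOX gene, and microRNA genes. Of the 24 found in the table, 14 could be tested, and edgeR and DESeq2 each called 0 of them, with 2 at an unadjusted p under 0.05 in edgeR. *HOTTIP*, known for keeping posterior HOXA genes active, had 48, 61 and 41 counts in control libraries and 51, 101 and 102 in IGF2BP3 KD libraries (log2 fold change 0.88, SE 0.30, adjusted p = 0.0599). Scaled for depth, its groups did not overlap. Among the alternative edgeR fits it was called without IGF2BP3 KD replicate 1 (1.09, adjusted p = 0.0256) and with at least 10 counts required in every library (0.88, adjusted p = 0.0434). *HOXC13-AS*, antisense to *HOXC13*, had 122, 86 and 66 counts against 54, 35 and 51 (log2 fold change -0.81, SE 0.31, adjusted p = 0.0959). *HOTAIR*, a HOXC RNA linked to Polycomb, had 5.46 ± 0.424 and 6.52 ± 0.797 CPM and was not called. The genes named here were chosen after their values were seen.

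Among 9 tested HOX cofactors, 2 fell (22.2%) and 1 rose (11.1%), where 10.6% of all tested genes fell and 9.87% rose. The gene that rose was *MEIS2* (log2 fold change 0.34, 25.6 ± 0.900 to 32.4 ± 0.970 CPM), a DNA-binding partner of HOX proteins. The genes that fell were *PKNOX1* (-0.28), a relative of MEIS genes, and *GMNN* (-0.62, 35.6 ± 1.27 to 23.2 ± 0.819 CPM), whose product geminin binds HOX proteins and also controls replication licensing.

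Of 33 tested Polycomb genes 11 fell (33.3%) and 5 rose (15.2%), against 10.6% and 9.87% of all tested genes, with a median log2 fold change of -0.02 against 0.01 over all genes. Those that fell include *SUZ12* (-0.37) and *EZH2* (-0.30), core subunits of PRC2, the complex that methylates lysine 27 of histone H3, and *PCGF6* (-0.75), *RYBP* (-0.35) and *BCOR* (-0.28) of non-canonical PRC1. Those that rose were *CBX7* (0.48) and *SCMH1* (0.31) of canonical PRC1, *PCGF3* (0.24), *PHF1* (0.32) and *EZH1* (0.23), the paralog of *EZH2*. The counts were 7 lower and 4 higher without IGF2BP3 KD replicate 2, 8 lower and 3 higher without control replicate 2, and 9 lower and 3 higher without IGF2BP3 KD replicate 3. Detection depends on level, and the shares of this and the other lists were not matched for it. In control cells *EZH2* had 101, *SUZ12* 76.5 and *PCGF6* 11.0 CPM. The median over all tested genes was 9.81 CPM in the 6 libraries.

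Of 25 tested trithorax genes 4 fell (16%) and 2 rose (8%), near the 10.6% and 9.87% of all tested genes. *ASH2L* (-0.35), *PAXIP1* (-0.30), *HCFC1* (-0.19) and *SETD1A* (-0.21), parts of complexes that methylate lysine 4 of histone H3, fell, and *DPY30* (0.21), from the same complexes, and *KDM6B* (0.20), a demethylase of lysine 27, rose. The number of higher genes was 1 without IGF2BP3 KD replicate 2 and 0 without control replicate 2, control replicate 3, IGF2BP3 KD replicate 1 or IGF2BP3 KD replicate 3.

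Of 20 tested genes that act upstream of HOX clusters through CDX, retinoic acid or CTCF, 4 fell and 4 rose (20.0% each), against 10.6% and 9.87% of all tested genes. *CDX2*, an intestinal homeobox gene and activator of HOX clusters, rose from 12.6 ± 1.38 to 17.7 ± 0.578 CPM (log2 fold change 0.50, SE 0.09, adjusted p = 0.0025). *CRABP2* (0.77), a carrier of retinoic acid, *RXRA* (0.12), a retinoid receptor, and *YY1* (0.16), a DNA-binding factor, rose. *RARA* (-0.45), a receptor of retinoic acid, *RDH10* (-0.31), an enzyme of its synthesis, and *CTCF* (-0.18) and the cohesin subunit *RAD21* (-0.11), which set chromatin boundaries, fell. Of the 20 tested non-HOX genes listed as flanking the clusters, 3 fell (15%) and 4 rose (20.0%), against 10.6% and 9.87% of all tested genes. Beside HOXA, *HIBADH* (0.20) and *SKAP2* (0.18) rose. Beside HOXC, *CBX5* (0.17) and *SMUG1* (0.27) rose and *HNRNPA1* (-0.24) fell, and beside HOXD *MTX2* (-0.25) fell. *HNRNPA3* (-0.12) fell as well but is not next to HOXD. It lies at chr2:177212694-177223959, beyond *MTX2* (chr2:176269395-176338025). The flanking genes that rose were 2 without control replicate 3, IGF2BP3 KD replicate 1 or IGF2BP3 KD replicate 3, and those that fell were 2 with any single IGF2BP3 KD replicate left out.

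**Figure D4:**
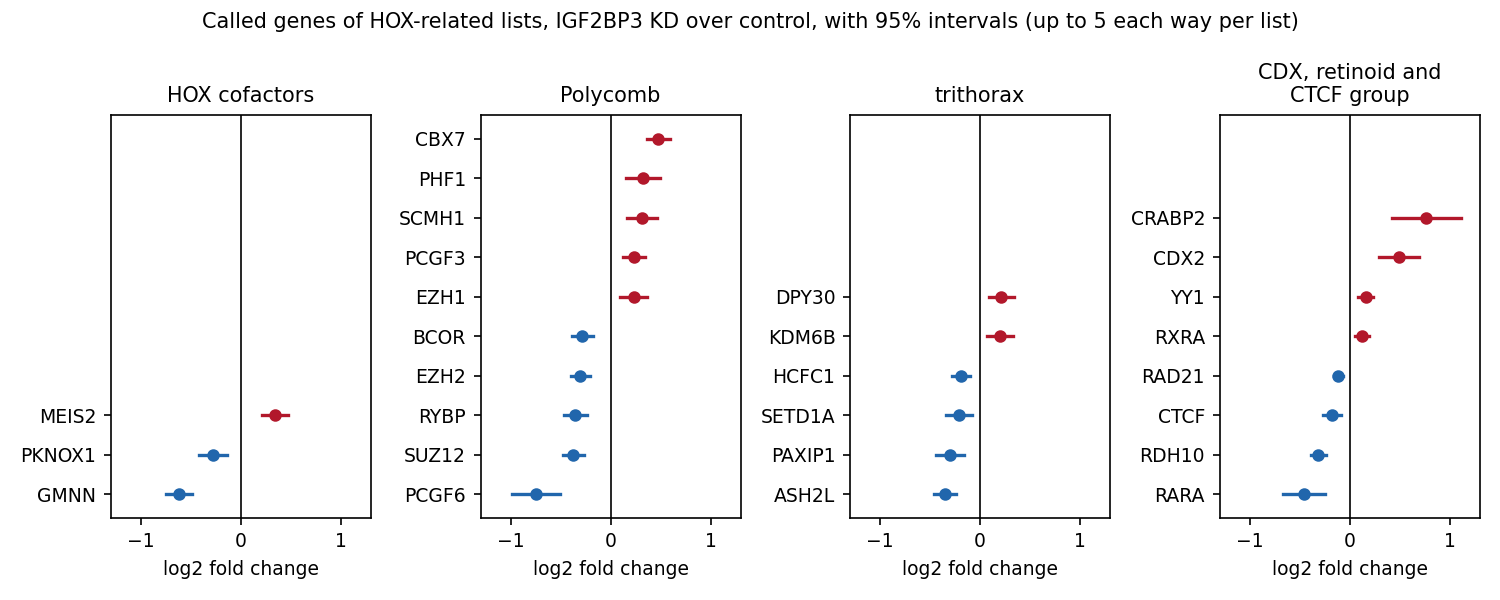
Points are log2 fold changes of called genes in the lists of HOX cofactors, Polycomb genes, trithorax genes and genes of the CDX, retinoid and CTCF group, at most 5 in each direction per list, and lines are 95% intervals. Each of the 4 lists holds genes on both sides of 0.

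The cell type was checked with marker genes. Of 8 epithelial markers 7 were tested, with *CDX1* at 0 in every library. Their sum was 18518 to 19510 CPM in control and 20187 to 20657 CPM in IGF2BP3 KD libraries. Most of this sum was *ERBB2*, with means of 13074 CPM in control and 14337 CPM in IGF2BP3 KD cells. *EPCAM* (log2 fold change 0.15) and *ERBB2* (0.13) rose and *KRT8* (-0.06) and *KRT18* (-0.07) fell, but neither keratin gene was called without control replicate 2, control replicate 3, IGF2BP3 KD replicate 2 or IGF2BP3 KD replicate 3. Of 10 fibroblast markers 3 were tested and *COL1A1* (0.50) rose, with *COL1A2*, *LUM* and *TWIST1* at 0 in every library and sums of 21.2 to 24.6 against 29.9 to 34.4 CPM. Of 6 leukocyte markers 2 were tested and *CD68* (0.54), which shares 85.6% of its exonic bases with other genes, rose, with *CD3E* at 0. The other tested leukocyte marker, *LYZ*, was not called (log2 fold change -0.01) and made up nearly all of the sums of 2505 to 2733 against 2542 to 2615 CPM. None of the 4 endothelial markers was tested, with sums of 0 to 0.563 against 0.161 to 0.371 CPM. The part of *COL1A1* and *CD68* in the changes of HOX genes was not tested.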

How the data were processed

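Poly(A) RNA of OE-19 cells was sequenced from 3 control and 3 IGF2BP3 KD libraries with a directional kit and paired reads of 150 bases. The authors trimmed reads with fastp (per the submitters' processing notes), aligned them to hg38 with HISAT2 at default settings and counted them with featureCounts, and they deposited raw counts per gene. Tool versions, the annotation release and the strand setting are not given in the sources used here. Repeated entries, 132 of 44 identifiers, were left out, and 60480 identifiers remained.

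The test was edgeR 4.0.16 under R 4.3.3, with TMM scaling. Genes passed filterByExpr (at least 10 counts, total at least 15), were fitted by glmQLFit and glmQLFTest with no block, and 19778 p-values were adjusted by Benjamini-Hochberg. The SE was derived from the log2 fold change and the F statistic. TMM factors were 0.992 to 1.01, and the square root of the common dispersion was 0.148. In simulated data for this comparison over 19778 genes, 31.9% of 94 genes changed by 0.5 and 60.4% of 106 changed by 1 on the log2 scale were recovered, and 8 of 19578 unchanged genes were called. The simulation changed a far smaller share of genes than the 20.4% called in the data. An adjusted p under 0.05 is harder to reach in that setting, so these recovered shares may be too low for the data. Libraries of the same group differed by a chi-square of 9.86 to 17.6 per degree of freedom, so no library repeats another.

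Exon lengths, overlaps and 3′ UTRs come from GENCODE 44, which holds 19773 of the tested identifiers and all 39 HOX genes, and microRNAs from RefSeq. Only 3′ UTRs of at least 50 bases were searched. Alternatives were DESeq2 1.42.0, RLE scaling, other filters and thresholds, robust dispersion, coding genes only, a block by replicate number, leaving out single libraries, and lengths without shared bases. Some genes are not reported here. The HOX genes and the gene lists were chosen with earlier results of these data known. Named are all called HOX genes, the 5 with the highest level per kb, and of each list up to 5 called genes in each direction by smallest p.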

Additional observations from a re-analysis of the deposited data

How the results depend on the processing

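*HOXB6*, *HOXB8* and *HOXA13* kept their direction and their call in all 39 values from 13 other fits, with log2 fold changes of -0.30 to -0.25, -0.61 to -0.54 and 0.51 to 0.60. The 2 lower HOX genes were 2 to 3 and the 1 higher gene 1 when 1 library was left out: *HOXC13* was also called without control replicate 1 (-0.49, adjusted p = 0.0357) and *HOXB2* without IGF2BP3 KD replicate 3 (-0.89, adjusted p = 0.0448). At an unadjusted p under 0.05, 7 HOX genes were lower and 2 higher. *IGF2BP3* ranged from -3.10 to -3.00 with 1 library left out.

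The counts showed no sign that replicate numbers pair the samples. Deviations of log2 CPM from the group means correlated at -0.0017, -0.032 and 0.0092 between same-numbered control and IGF2BP3 KD libraries. Between those of different numbers the correlations were -0.020 to 0.022. Whether same-numbered libraries were prepared together is not known. With the replicate number as a block, the same 2 lower and 1 higher HOX genes were called (*IGF2BP3* -3.03).

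Of 286 values of 22 uncalled HOX genes 11 changed sign, for genes with log2 fold changes near 0. With 1 library left out the values ranged from -0.23 to 0.23 for *HOXA7*, -0.48 to 0.15 for *HOXA11*, -0.00059 to 0.30 for *HOXB13*, -0.12 to 0.13 for *HOXC6* and -0.054 to 0.036 for *HOXC10*. Values of 9 further uncalled HOX genes moved by over 1.5 times with no change of sign. Besides *HOXA3* and *HOXA5* these were *HOXA4* (0.0039 to 0.21), *HOXB5* (-0.21 to -0.08), *HOXB7* (-0.11 to -0.0049), *HOXB9* (0.12 to 0.34), *HOXC4* (0.04 to 0.52), *HOXC8* (0.14 to 0.37) and *HOXC12* (0.04 to 0.10). *HOXC6* was also -0.0021 without a filter and -0.0086 with the block. Over all genes 2088 were lower and 1953 higher, 1768 and 1354 without a filter, and 2416 and 2074 in DESeq2. Of 40 genes named from the lists, 28 kept the call in all 13 fits, and *DPY30*, *EZH1*, *HNRNPA3*, *KDM6B*, *KRT18*, *KRT8*, *MTX2*, *PHF1*, *RXRA*, *SETD1A*, *SKAP2* and *SMUG1* lost it in at least 1. Levels per kb moved by more than the spread for 9 HOX genes when shared bases were left out, as for *HOXC5* from 1.25 to 3.83.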
